A study of Caenorhabditis elegans with 8 samples.

Results

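The *ins* genes of *Caenorhabditis elegans* encode small secreted peptides of the insulin family. They were examined in bulk RNA sequencing of whole animals. Members were the genes whose name in the study's annotated gene list begins with ins-, and their counts were taken by gene identifier from the table of all genes. The rule gave 35 genes of 46926 in the table and looked at names only, but it could reach only genes in that list. *ins-8*, *ins-13* and *ins-19* were not in the annotated list and had between 0 and 7 counts in all. Every member had at least 15, so membership may depend on level. *daf-28*, an insulin-like gene under another name, is given separately.

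The libraries were 4 labelled smrd1Null and 4 labelled Control. The smrd1Null animals carried *smrd-1 Δ#1*, a partial CRISPR deletion, which removes the helicase region, in *smrd-1*, the worm counterpart of the chromatin remodeler SMARCAD1, in the N2 background. The Control animals were wild-type N2, and neither group carried a tau transgene. The sources differ on age, with the L4 stage in the extraction protocol and adults in the design text. The deletion is a single allele, and the labels do not say whether the replicates were separate cultures. The p-values below therefore set group differences against the spread between these samples. They may not cover the spread between cultures or alleles.

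*smrd-1* itself had 6369, 6252, 6874 and 6330 counts in the libraries labelled smrd1Null, against 3638, 2997, 3876 and 4073 counts in those labelled Control. The groups did not overlap, and the gene was higher under the deletion label (log2 fold change 0.83, SE 0.0813, edgeR adjusted p 0.0089). Without smrd1Null replicate 1 the adjusted p was 0.0574. These counts cover the exons that the deletion keeps as well as those it removes, and the deleted part was not measured on its own. They therefore do not show a loss of *smrd-1* under the deletion label and do not settle whether the labels hold, so groups are named as labelled. Each library held between 74704022 and 78008833 counts.

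Insulin-like peptides are made as precursors, cut by proprotein convertases, stored in dense-core vesicles and released. They bind DAF-2, the insulin receptor of the worm, as agonists or antagonists. Active DAF-2 signals through the kinases AGE-1, PDK-1, AKT-1 and AKT-2 to keep the transcription factor DAF-16 out of the nucleus. The pathway is known for its control of dauer arrest, lifespan, fat storage and stress resistance, and most peptides come from neurons or the intestine.

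The genes were short and many lay side by side. Coordinates are those of WBcel235. Exons covered 284 to 955 bases per gene, with a median of 432, and the encoded precursors had 67 to 218 residues. There were 13 members on chromosome II, 10 on I, 5 on III, 3 on IV, 2 on V and 2 on X. Members whose starts lay within 20000 bases of the next formed 5 groups holding 20 of the 35 genes. The first held *ins-24* to *ins-30* within 25409 bases of chromosome I (14012369 to 14037777). Another held *ins-2* to *ins-6* and *ins-20* within 22798 bases of chromosome II (5988524 to 6011321).

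Most *ins* genes were weakly expressed. Of the 35 members, 26 passed the filter on low counts and 9 did not (*ins-2*, *ins-15*, *ins-16*, *ins-20*, *ins-21*, *ins-31*, *ins-32*, *ins-36* and *ins-39*). The 9 had between 15 and 65 counts over all 8 libraries, with at most 22 in a library. A floor of 3 counts was worth 0.0371 to 0.0422 CPM, the unit that scales counts to a common library size, and this floor covers counting error only. Per kilobase of exons the 26 tested members ranged between 0.386 and 63.3 CPM. Their median was 2.7, against 8.09 for all tested genes, and 30.5% of tested genes lay below that member median.

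The highest member was *ins-27* (chromosome I, 14027236 to 14027588, plus strand, 2 exons, 83 residues). It had 35.7 to 65.4 CPM per kilobase in smrd1Null libraries and 65.8 to 81.9 CPM per kilobase in Control libraries. Next was *ins-35* (chromosome V, 20375536 to 20376302, plus strand, 2 exons, 94 residues), an intestinal agonist that opposes dauer entry. It had 8.27 to 24.3 CPM per kilobase in smrd1Null and 33.9 to 49.2 CPM per kilobase in Control. The ranges of *ins-27* and *ins-35* were apart within each group.

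*ins-17*, whose peptide acts as an antagonist, followed with 12.3 to 17.2 CPM per kilobase in smrd1Null and 15.1 to 19.9 in Control. *ins-35* lay above *ins-17* in every Control library, while their smrd1Null ranges overlapped. *ins-33*, which promotes germline proliferation in larvae, had 4.56 to 13.1 CPM per kilobase in smrd1Null and 8.67 to 14.0 in Control. *ins-18*, another antagonist, had 4.88 to 9.03 CPM per kilobase in smrd1Null and 6.13 to 10.1 in Control. The ranges of *ins-33* and *ins-18* overlapped in both groups, and below them adjacent genes overlapped as well, as the plot of levels shows.

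**Figure D1:**
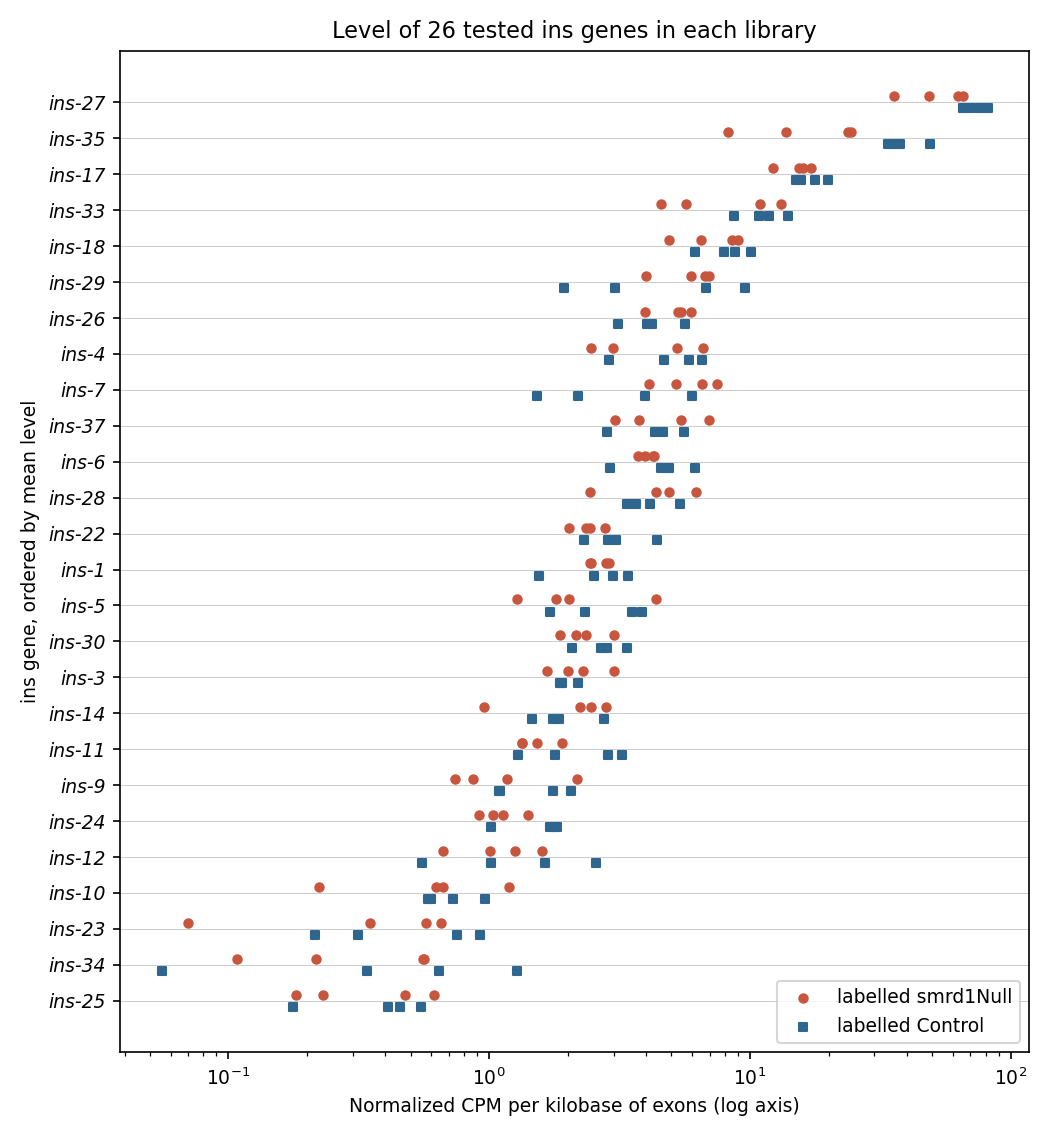
Normalized CPM per kilobase of exons (log axis) of the 26 tested *ins* genes, with a point for each library, circles for smrd1Null and squares for Control. The levels run between 0.386 and 63.3 on average, and only in *ins-27* and *ins-35* do all circles lie below all squares.

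No *ins* gene passed the test between the groups. With edgeR's quasi-likelihood test, 0 of 26 tested members had an adjusted p at most 0.05, where 26 of 16808 tested genes did, or 0.155% (0.0892% higher and 0.0654% lower in smrd1Null). The smallest adjusted p of a member was 0.452. DESeq2 also called 0 members, where it called 1.23% of the genes it tested. At an unadjusted p under 0.05 there were 2 members, *ins-35* and *ins-27*, both lower in smrd1Null, by edgeR and 2 by DESeq2. Over all genes 7.74% met that level by edgeR in either direction and 3.84% were lower. These same members were also the 2 whose groups did not overlap, and 5.20% of all tested genes did not overlap (2.84% lower and 2.36% higher in smrd1Null).

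*ins-35* had 658, 678, 246 and 420 counts in smrd1Null replicates 1 to 4, against 964, 1020, 1036 and 1520 counts in Control replicates 1 to 4. After normalization that was 9.05, 9.28, 3.16 and 5.23 CPM in smrd1Null and 13, 14.3, 13.5 and 18.8 CPM in Control. Every smrd1Null library lay below every Control library, with replicates 3 and 4 the lowest. The means were 6.68 ± 2.99 CPM in smrd1Null and 14.9 ± 2.66 CPM in Control (SD, n = 4 each). The fold was 0.449, a log2 fold change of -1.16 (SE 0.329, 95% interval -1.91 to -0.41), with an edgeR p of 0.00704 and an adjusted p of 0.452. The exact two-sided permutation test of the CPM gave 0.0286, the smallest that 4 against 4 libraries allow. In the 8 fits that each left out 1 library the log2 fold change lay between -1.36 and -0.94, and the edgeR adjusted p between 0.459 and 0.870. By DESeq2 the adjusted p was 0.0518, and by edgeR with a term for replicates 1 and 2 against 3 and 4 it was 0.0501.

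*ins-27* had 1410, 1481, 861 and 1207 counts in smrd1Null replicates 1 to 4, against 1616, 1688, 1572 and 2054 counts in Control. In CPM the values were 19.4, 20.3, 11.1 and 15 in smrd1Null and 21.7, 23.7, 20.4 and 25.4 in Control. The groups were apart, but smrd1Null replicate 2 and Control replicate 3 nearly touched. The means were 16.4 ± 4.26 CPM in smrd1Null and 22.8 ± 2.19 CPM in Control (SD, n = 4 each). The log2 fold change was -0.47 (SE 0.189, 95% interval -0.90 to -0.04), with an edgeR p of 0.0348 and an adjusted p of 0.619. It was under 0.05 unadjusted in 4 of the 8 fits that left out a library. The 7 genes of its chromosome I group, *ins-27* included, ran between -0.50 and 0.28, with 3 of the 7 genes higher and 4 lower.

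These 2 genes carried much of the family's total. All 35 members summed to 78.6, 75.8, 55.8 and 64.5 CPM in smrd1Null replicates 1 to 4, against 83.5, 90.5, 78.2 and 93.9 CPM in Control. The groups overlapped, as smrd1Null replicate 1 lay just above Control replicate 3. *ins-27* and *ins-35* made up 25.5% to 39.0% of that sum in smrd1Null and 41.5% to 47.0% in Control. Without them the sum was 45.6 ± 3.62 CPM in smrd1Null and 48.9 ± 3.36 CPM in Control (SD, n = 4 each), and the groups overlapped as well.

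**Figure D2:**
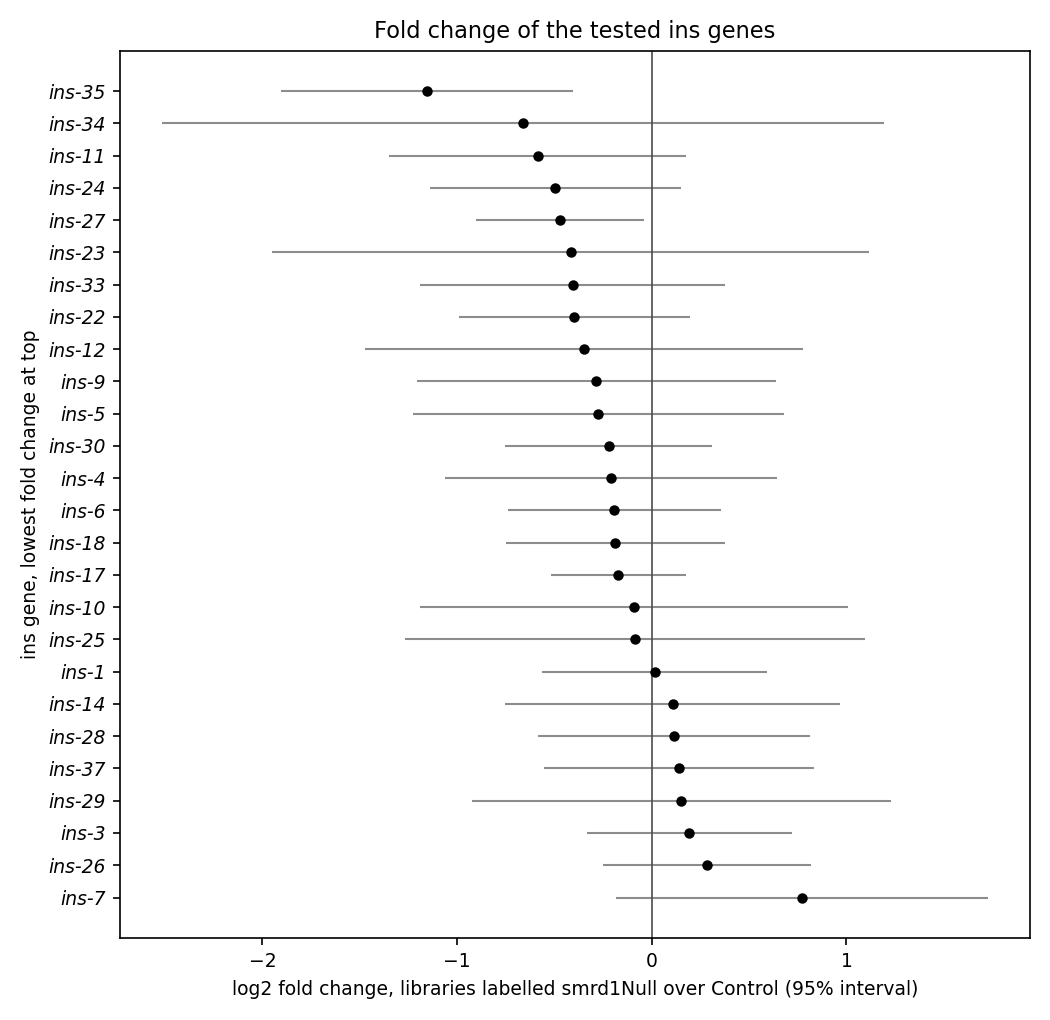
Log2 fold change of smrd1Null over Control for each tested *ins* gene (point) with its 95% interval (line), in order of fold change. Only the intervals of *ins-35* and *ins-27* leave out 0, and no gene passed the adjusted threshold.

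Over the tested members 18 log2 fold changes were below 0 and 8 above. That is 69.2% below 0, against 51.4% of all tested genes, and the member median was -0.20, against -0.0082 over all genes. Only *ins-35* reached a log2 fold change of -1 or less, as did 1.54% of all genes. The other intervals all included 0, and their widths leave room for changes that these libraries could not resolve.

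Among the peptides that act as agonists in the dauer decision, *ins-4* had 2.52 ± 1.13 CPM in smrd1Null and 2.92 ± 0.937 CPM in Control (SD, n = 4 each). Its log2 fold change was -0.21 (95% interval -1.06 to 0.64). *ins-6* had 2.23, 2.05, 1.93 and 2.22 CPM in smrd1Null, against 1.51, 3.20, 2.55 and 2.37 CPM in Control. The smrd1Null values lay inside the Control range, and the log2 fold change was -0.19 (95% interval -0.74 to 0.35). *daf-28*, the partner of these genes in that decision, had 6.50 ± 0.671 CPM in smrd1Null and 7.85 ± 1.92 CPM in Control, with a log2 fold change of -0.27 (edgeR adjusted p 0.706).

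*ins-7*, an intestinal agonist that DAF-16 represses, had the highest fold change of the family. It had 2.20, 1.72, 2.76 and 3.16 CPM in smrd1Null, against 0.645, 0.927, 2.52 and 1.67 CPM in Control. Control replicate 3 lay within the smrd1Null range, and Control replicates 1 and 2 were the lowest. The log2 fold change was 0.77 (SE 0.420, 95% interval -0.18 to 1.73), with an edgeR adjusted p of 0.670. The 2 intestinal agonists had values on opposite sides of 0, *ins-35* below and *ins-7* above, and neither passed the test.

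Of the antagonists, *ins-1* had 2.12 ± 0.186 CPM in smrd1Null and 2.10 ± 0.635 CPM in Control, with a log2 fold change of 0.01 (95% interval -0.56 to 0.59). Without Control replicate 3 it was -0.18. *ins-17* had a log2 fold change of -0.17 (95% interval -0.52 to 0.17) and *ins-18* of -0.19 (95% interval -0.75 to 0.38). A change of 1 log2 unit in either direction lay outside all 3 of these intervals.

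Of the genes known for larval germline proliferation, *ins-3* had 1.18, 0.985, 1.77 and 1.34 CPM in smrd1Null, against 1.10, 1.29, 1.12 and 1.11 CPM in Control, a log2 fold change of 0.19 (edgeR adjusted p 0.794). *ins-33* had 6.82, 5.68, 2.38 and 2.95 CPM in smrd1Null, against 6.17, 7.28, 4.52 and 5.65 CPM in Control. Its smrd1Null replicates 3 and 4 were below all other libraries, and its log2 fold change was -0.41 (edgeR adjusted p 0.732).

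*ins-11*, an intestinal peptide of the response to pathogens, had 0.523, 0.520, 0.745 and 0.597 CPM in smrd1Null, against 1.26, 0.506, 0.701 and 1.11 CPM in Control. Only Control replicates 1 and 4 were above the smrd1Null range (log2 fold change -0.59, edgeR adjusted p 0.679). *ins-22*, whose tagged peptide is used to mark dense-core vesicles, had 0.809 ± 0.103 CPM in smrd1Null and 1.07 ± 0.302 CPM in Control (log2 fold change -0.40, edgeR adjusted p 0.703).

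The other members with large fold changes were low or scattered. *ins-34* had a log2 fold change of -0.66, but its interval ran from -2.52 to 1.19, and without Control replicate 1 the value was 0.07. *ins-34* also shares 82 exonic bases with neighbouring genes, and counting ignored strand. *ins-24* was at -0.50 (95% interval -1.14 to 0.15). *ins-26* was at 0.28 (95% interval -0.25 to 0.82), and *ins-29* at 0.15 with a leave-one-out range of -0.13 to 0.59.

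*ins-37* lay beside a called gene. It had 2.89, 3.57, 6.64 and 5.20 CPM in smrd1Null, against 4.14, 2.71, 5.32 and 4.44 CPM in Control, with a log2 fold change of 0.14 (edgeR adjusted p 0.880). *F08G2.5*, whose start is 2006 bases away on chromosome II, was the only called gene within 20000 bases of a member. It fell in smrd1Null to 3.88 ± 0.640 CPM, against 23.4 ± 3.39 CPM in Control (SD, n = 4 each), a log2 fold change of -2.59 (edgeR adjusted p 0.00234). It was named after its values were seen. *ins-37* shares 192 exonic bases with other genes, and *ins-10* and *ins-36* share 74 and 57.

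**Figure D3:**
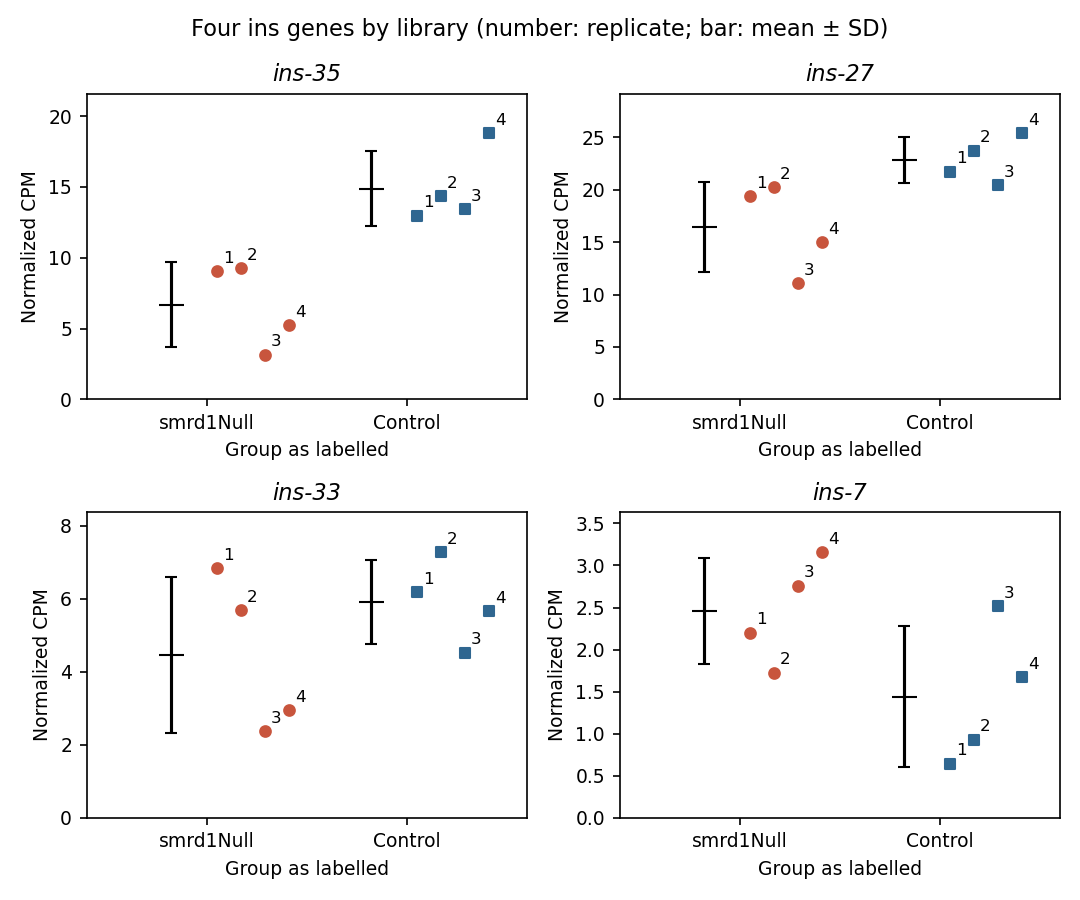
Normalized CPM of *ins-35*, *ins-27*, *ins-33* and *ins-7* in each library, smrd1Null left and Control right, with replicate numbers and the mean ± SD (n = 4). Replicates 3 and 4 of smrd1Null are the lowest libraries for *ins-35*, *ins-27* and *ins-33*.

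Replicates 3 and 4 were also set against 1 and 2, a division read from earlier results of the data and not from the labels. The difference had the same sign in both groups for 16 members, 7 up and 9 down in replicates 3 and 4, and opposite signs for 10. That is 61.5% with the same sign, against 73.6% of all tested genes, and it was not tested for the members. *ins-4* was lower in replicates 3 and 4 by log2 differences of -1.11 in smrd1Null and -0.74 in Control, and *ins-5* by -0.95 and -0.88. *ins-7* was higher there, by 0.59 in smrd1Null and 1.38 in Control, and *ins-29* by 0.48 and 1.70.

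The division looked different in the groups for the 2 genes with the lowest p. *ins-35* had a log2 difference of -1.17 between replicates 3 and 4 and replicates 1 and 2 in smrd1Null, and 0.22 in Control. *ins-27* had -0.62 in smrd1Null and 0.00 in Control. For *ins-35* the log2 fold change came to -0.59 between replicates 1 and 2 of the groups, and to -1.94 between replicates 3 and 4. That of *ins-27* was -0.21 and -0.81. In a fit with an interaction term, added after seeing the data, *ins-35* had an interaction of -1.37 (edgeR p 0.0030, adjusted p 0.0615) and *ins-27* of -0.62 (adjusted p 0.203). In all 5 members had an unadjusted interaction p under 0.05, against 17.7% of all genes. Besides *ins-35* and *ins-27* these were *ins-12* (2.17, edgeR p 0.0160), *ins-33* (-0.83, edgeR p 0.0166) and *ins-29* (-1.25, edgeR p 0.0224). The p of each was below that of *ins-27* (edgeR p 0.0253), and *ins-12* went the other way. After adjustment 0 members passed, against 4.16% of all genes.

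**Figure D4:**
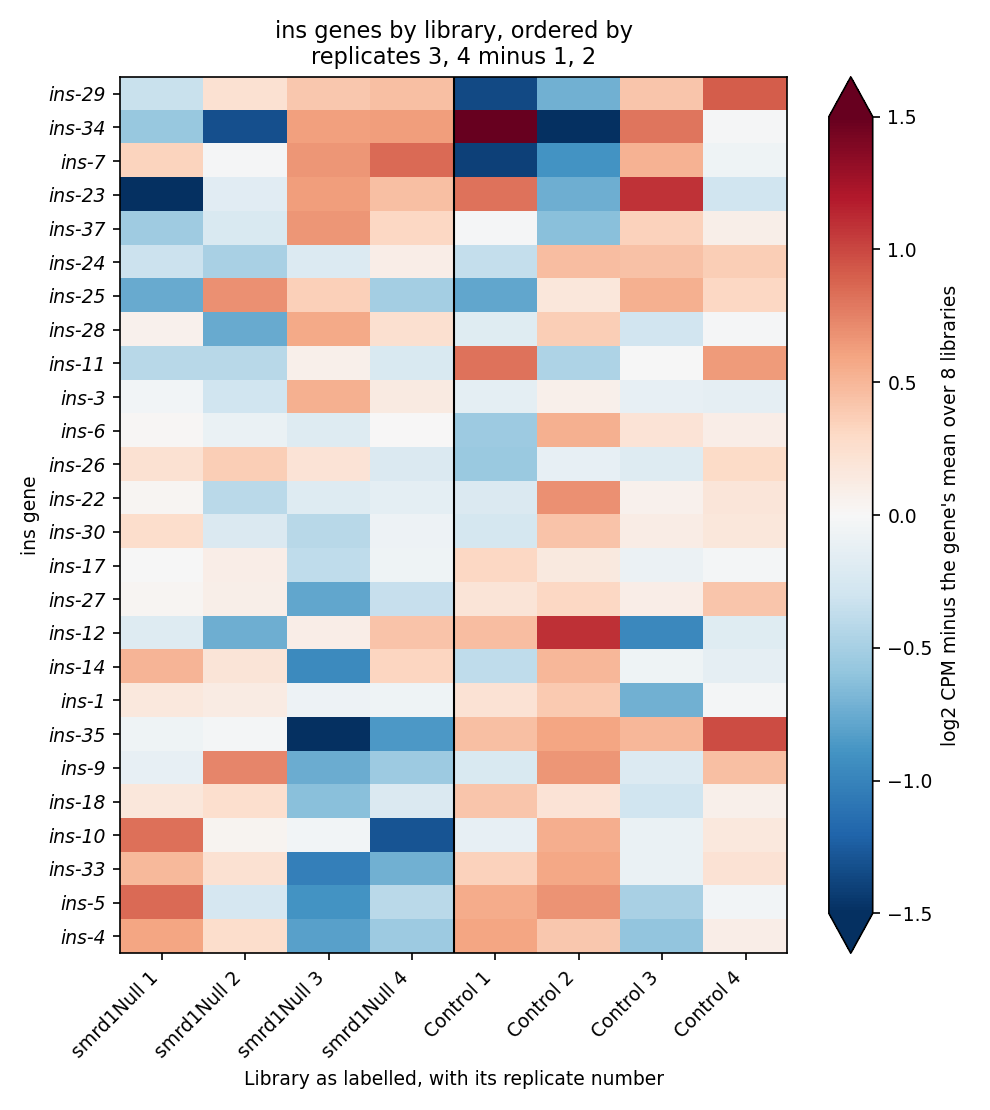
Log2 CPM of each tested *ins* gene minus its mean over the 8 libraries, smrd1Null libraries left of the line and Control libraries right, with genes ordered by the difference of replicates 3 and 4 from 1 and 2. *ins-29* stands at the top and *ins-4* at the bottom, and smrd1Null replicate 3 has the lowest *ins-35*.

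Marker genes of tissues, those that make the peptides included, also differed between the libraries. The 6 vitellogenin genes, which encode yolk proteins made in the adult intestine, summed to 6583, 8549, 18352 and 12312 CPM in smrd1Null, against 5639, 2249, 6596 and 3131 CPM in Control. All 6 were above 0 in log2 fold change, with a median of 1.6, and none passed edgeR's adjusted threshold, while DESeq2 called 3. At an unadjusted edgeR p under 0.05 there were 6, where 3.90% of all genes were higher at that level. In 4 the groups did not overlap, as in 2.36% of all genes in that direction. The library with the most vitellogenin was smrd1Null replicate 3, which also had the least *ins-35* and *ins-27*. The 8 oocyte markers were all above 0 with a median of 0.77, and 4 had an unadjusted edgeR p under 0.05. They summed to 602 to 1347 CPM in smrd1Null and 406 to 785 CPM in Control. The 10 germline markers were all above 0 with a median of 0.17, and summed to 2027 to 2793 CPM in smrd1Null and 1829 to 2148 CPM in Control. The 10 intestine markers had a median of -0.18, with 3 above 0 and 7 below, and summed to 4750 to 7011 CPM in smrd1Null and 5502 to 7826 CPM in Control. The 14 neuron markers had a median of -0.19, with 3 above 0 and 11 below, and summed to 460 to 629 CPM in smrd1Null and 528 to 677 CPM in Control. All 10 muscle markers were below 0, with a median of -0.16, and summed to 8888 to 15562 CPM in smrd1Null and 11216 to 16036 CPM in Control. The 10 hypodermis markers, 5 on each side of 0, summed to 3407 to 4440 CPM in smrd1Null and 2264 to 4705 CPM in Control. edgeR called 0 genes in each of these lists in the comparison without a replicate term. With the term for replicates 1 and 2 against 3 and 4 it called 3 intestine, 1 neuron, 1 hypodermis and 1 muscle marker as lower and 2 vitellogenin genes as higher. That fit called 5.53% of all genes, 2.86% as lower. DESeq2 called 1 neuron marker, where it called 1.23% of all genes it tested. The only neuron marker with an unadjusted edgeR p under 0.05 was higher in smrd1Null. No marker was at 0 in all libraries, and the part of these differences in the *ins* values was not tested. In whole animals fewer cells of a type and less RNA per cell cannot be told apart.

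The genes that read the peptides showed no called change. In the list of 16 insulin pathway genes, which also holds the peptide gene *daf-28*, all were tested and 0 were called. There were 7 above 0 and 9 below, *daf-28* included, around a median of -0.07 on the log2 scale. *daf-2*, the receptor, had 87.3 ± 4.95 CPM in smrd1Null and 93.7 ± 9.12 CPM in Control (SD, n = 4 each), a log2 fold change of -0.10 (edgeR adjusted p 0.730). *daf-16* had 120.2 ± 11 CPM in smrd1Null and 127.7 ± 18.3 CPM in Control, a log2 fold change of -0.09 (edgeR adjusted p 0.808).

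Genes for peptide processing and release leaned below 0 without a call. Of 17 genes, 15 were below 0 and 2 above, around a median of -0.12 on the log2 scale, and 0 were called. That is 88.2% below 0, against 51.4% of all tested genes. *egl-3*, *egl-21* and *ida-1* are also among the 14 neuron markers, of which 11 were below 0. With the term for replicates 1 and 2 against 3 and 4, edgeR called 2 of the 17 genes as lower, where it called 5.53% of all genes, 2.86% as lower. That fit called 0 *ins* genes. The 1 neuron marker it called was *egl-3*, a proprotein convertase that cuts neuropeptide precursors, which counts in both lists. In this list the 2 called genes were *egl-3* (edgeR adjusted p 0.0412) and *cab-1* (edgeR adjusted p 0.0281), both named after their values were seen. With the replicate number as a block neither was called (edgeR adjusted p 0.110 and 0.0929).

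Of the 17 genes in the DAF-16 target list 16 were tested and 0 were called, with 9 above 0 and 7 below. There were 4 at an unadjusted p under 0.05, all above 0, where 3.90% of all genes were above 0 at that level. *icl-1*, a glyoxylate cycle enzyme, had 408 ± 28.1 CPM in smrd1Null and 349 ± 14.3 CPM in Control, with no overlap (log2 fold change 0.23, edgeR adjusted p 0.571). *gst-4*, a glutathione transferase, had 22.7 ± 2.72 CPM in smrd1Null and 17 ± 2.12 CPM in Control (log2 fold change 0.41, edgeR adjusted p 0.510). *fat-7*, a fatty acid desaturase, was at 0.52 and *dod-3* at 1.07, both with an adjusted p of 0.639. With the replicate term *gst-4* and *dod-3* were called by edgeR (adjusted p 0.0343 and 0.0455). That fit called 929 of 16808 genes, or 5.53%, of which 449 were higher. With the replicate number as a block neither was called (edgeR adjusted p 0.0931 and 0.109).

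**Figure D5:**
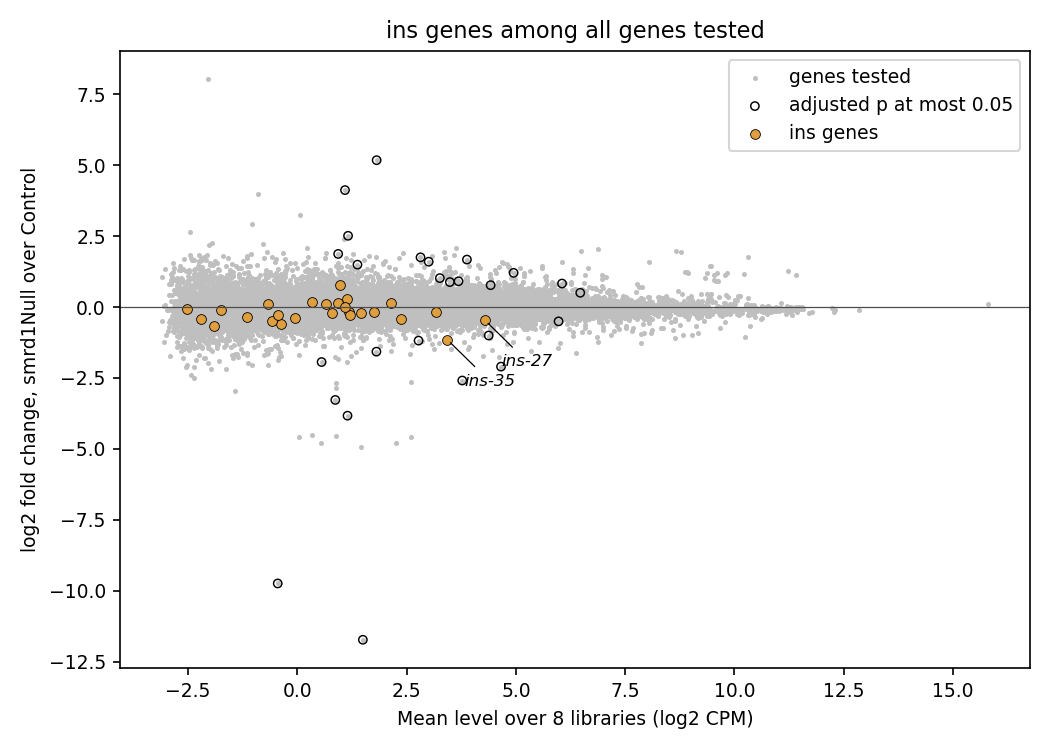
Log2 fold change of smrd1Null over Control against mean log2 CPM for all 16808 tested genes (grey), the 26 genes with an adjusted p at most 0.05 (rings) and the 26 tested *ins* genes (filled). No filled point carries a ring, and *ins-35* lies lowest among the filled points.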

How the data were processed

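RNA of whole animals was enriched for poly-A RNA and sequenced as paired 150 base reads. Alignment by the authors was to WBcel235 with STAR 2.7.11b, and featureCounts 2.0.1 with annotation release 112 (file header) gave the deposited raw counts per gene. The command names no option for pairs or strand, so mates were counted singly, strand was unused, and reads mapping to several places or genes were left out. Even numbers made up 73.1% to 96.3% of member counts of 10 or more, against 63.5% to 66.2% for all genes. Per the submitters' notes DESeq2 was used for the authors' comparison. The deposited annotated table holds that comparison, of which only gene names were used.

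Counts were scaled by TMM and tested with edgeR 4.0.16 in R 4.3.3 (quasi-likelihood, filterByExpr, Benjamini-Hochberg adjustment over 16808 genes, threshold 0.05), with DESeq2 1.42.0 as an alternative. Figures were drawn with matplotlib 3.10.9. Normalized CPM divide by the TMM-scaled library size. Alternatives were other scaling and filters, a replicate block, a term for replicates 1 and 2 against 3 and 4, and leaving out each library. On data simulated for the same comparison 36% of genes changed by 1 log2 unit and 99% of those changed by 2 were recovered among 16808 genes. Of the 150 calls in that run 15 were false. Changes were planted only in genes above a minimum mean count, with the same dispersion for every gene and no split of replicates. These shares therefore do not cover members with low counts.

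Groups come from the labels. Deviations of libraries with the same replicate number correlated across genes (0.357, 0.221, 0.489 and 0.390 for replicates 1 to 4). No such value is given for libraries with different numbers, so these do not show that the numbers pair the libraries. Why they should is not in the labels, and genes are not independent replicates. Positions, neighbours, shared exonic bases and lengths come from the annotation of the deposited counts, release 112. Numbers of exons and residues come from the WBcel235 annotation, release 115. Genes named are members with an unadjusted p under 0.05, non-overlapping groups, the 5 largest fold changes in each direction or the 5 highest levels, a list of peptides with known roles, *daf-28*, *daf-2*, *daf-16*, *smrd-1*, and list genes called or with an unadjusted p under 0.05. Members with an unadjusted interaction p under 0.05 are named as well. Members and lists were chosen with earlier results of these data known. Values of a single gene of the insulin pathway list are not reported here.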

Additional observations from a re-analysis of the deposited data

Results flagged for a closer look

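A library lay far from the other 3 of its group in 2 of 54 groups of values examined, where chance gives about 1 in 20. *ins-3* had 1.29 CPM in Control replicate 2, against 1.10 to 1.12 CPM in the other Control libraries. *ins-24* had 0.484 CPM in Control replicate 1, against 0.816 to 0.871 CPM in the other Control libraries.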

How the results depend on the processing

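No *ins* gene was called under any alternative run, and the median member log2 fold change of -0.20 stayed between -0.27 and -0.10. The count of called genes over all genes was 26, against 250 with DESeq2, 226 with DESeq2 without independent filtering, 929 with the term for replicates 1 and 2 against 3 and 4, and 7 to 14 when 1 library was left out, and the cause was not tested. With the replicate block it was 26, of which 14 were the same genes, and the block changed no call of an *ins* gene. With the replicate term, which called 5.53% of all genes, 2 genes of the peptide processing list and 2 of the DAF-16 target list were called. The same fit called 3 intestine, 2 vitellogenin, 1 neuron, 1 muscle and 1 hypodermis marker. Leaving out a library moved *ins-34* between -1.04 and 0.07 (0.065 without Control replicate 1), *ins-37* between -0.10 and 0.31 (below 0 without smrd1Null replicate 3 or Control replicate 2), *ins-29* between -0.13 and 0.59 (below 0 without Control replicate 1 or 2) and *ins-1* between -0.18 and 0.16. *smrd-1* was at 0.81 (edgeR adjusted p 0.0574) without smrd1Null replicate 1. The common dispersion was 0.0852, against 0.0335 with the replicate term. Depth limits the 9 members under the filter, whose changes were not detectable here.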
